A study of Sus scrofa with 8 samples.

Results

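Nuclear hormone receptors and the coregulators they recruit were followed in pig muscle cells. The members were the rows of the deposited gene table whose symbol is that of a nuclear receptor (NR-numbered genes and the PPAR, RAR, RXR, ROR, ESRR, ESR, THR and VDR families), of a nuclear receptor coactivator or corepressor (NCOA, NCOR), or of a PGC-1 coactivator. They came to 46 of the 25285 genes of the table, after 1 repeated row (a second NR6A1) had been set aside. By role, 36 rows were receptors, 8 coactivators and 1 a corepressor, and NR2C2AP, a protein that binds the receptor NR2C2, entered through the start of its symbol.

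RNA was sequenced from primary cells of pig skeletal muscle (strain LYD as the labels give it) grown in culture, and the labels' protocol calls the cells MuSCs. There were 4 differentiated libraries, 2 from females and 2 from males, and 4 undifferentiated libraries, 2 from females and 2 from males. The labels give no medium, day or age, and do not say whether replicates came from separate animals, so the p-values measure the spread between these libraries, which may be technical. Values are FPKM (fragments scaled to transcript length and to the mapped fragments of the library) as the authors deposited them.

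Nuclear receptors are transcription factors, many of which switch between repression and activation when a lipid-soluble ligand binds: steroids, thyroid hormone, retinoids, vitamin D, oxysterols or fatty acids. Several bind DNA as heterodimers with a retinoid X receptor, while steroid receptors are held by HSP90 chaperones and act mostly as homodimers. Without ligand, many recruit corepressors such as NCOR1, and with ligand, p160 coactivators such as NCOA1. In skeletal muscle these proteins are known for setting fibre type, mitochondrial content, fuel use and the response to glucocorticoids.

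The libraries carried muscle genes in both states. The summed FPKM of 7 muscle markers found in the table ranged from 5988 to 8627 in differentiated libraries and from 740 to 1186 in undifferentiated ones. In differentiated libraries it was mostly MYH3, which averaged 4410 FPKM there and 4.25 FPKM in undifferentiated ones. Of the 7 markers 5 rose, and MYF5 (log2 -1.69) and MYOD1 (log2 -0.94) fell. The sum of 5 proliferation markers ranged from 20.2 to 70.4 FPKM in differentiated and from 200 to 292 FPKM in undifferentiated libraries. Differentiated male replicate 1 held the highest sums of its state for proliferation markers and for 5 fibroblast markers (816 FPKM, against 167 to 509 FPKM in the other 3). Fibroblast markers summed to between 167 and 816 FPKM in differentiated and between 23.7 and 185 FPKM in undifferentiated libraries, mostly through COL1A1, the only one of the 4 tested that rose. Sums for 4 smooth muscle and pericyte markers were 1015 to 1215 FPKM and 17.4 to 39.5 FPKM, mostly ACTA2, an actin that differentiating muscle cells also make. All 3 tested markers of that list rose, among them the pericyte markers CSPG4 (log2 1.49, limma adjusted p = 0.0132) and PDGFRB (log2 0.95, limma adjusted p = 0.0431), both highest in differentiated male replicate 1 at 8.55 and 46.7 FPKM. Markers of other cells were low. Sums over 5 immune markers were 2.87 to 4.30 FPKM in differentiated and 12.1 to 17.0 FPKM in undifferentiated libraries, through CD14, which fell, while PTPRC stayed at 0.199 FPKM or less. For 4 endothelial markers they were 2.56 to 7.53 and 2.25 to 6.31 FPKM, for 4 Schwann cell markers 2.34 to 3.68 and 4.30 to 7.21 FPKM, and for 3 adipocyte markers at most 1.85 and 0.347 FPKM. The part of these other cells and of proliferation in the results that follow was not tested. In bulk samples, fewer cells of a type and less RNA per cell cannot be told apart.

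The comparison of differentiated with undifferentiated cells asked how this receptor system changes when muscle cells leave the proliferating state. The test took 12963 genes with a mean of 1 FPKM or more, 34 of the 46 members among them. Of these 34, 7 rose and 7 fell (limma on log2(FPKM + 1), Benjamini-Hochberg adjusted p under 0.05 over all tested genes). The members that rose were the PGC-1 coactivators PPARGC1 and PPARGC1B, NCOA1, RXRG, the PPAR alpha row PPARALPHA, NR3C2 and ESRRA. Those that fell were NCOA7, RARG, THRB, NR2F1, NR2F6, RORA and NR2F2.

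The members called came to 20.6% in each direction, where 18.0% of all tested genes rose and 31.9% fell. With a log2 fold change of at least 1 in size, 5 members rose (14.7%, against 9.99% of all tested genes) and 4 fell (11.8%, against 13.1%). The share that rose was thus near that of other genes and the share that fell was below it, a difference that was not tested. Their median log2 fold change was -0.00, against -0.18 for all 12963 genes. The size of change, whatever its sign, had a median of 0.45 on the log2 scale in the members and 0.54 in all genes. Without overlap between the states, differentiated values were higher for 7 members (20.6%, against 17.1% of all tested genes) and lower for 7 members (20.6%, against 30.2%). When libraries were scaled by median ratios, which put the median of all genes at 0.03, 12 members rose and 5 fell, while 25.0% of all genes rose and 22.4% fell. Without differentiated male replicate 1, 7 rose and 6 fell, while 17.0% of all genes rose and 29.2% fell.

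**Figure D1:**
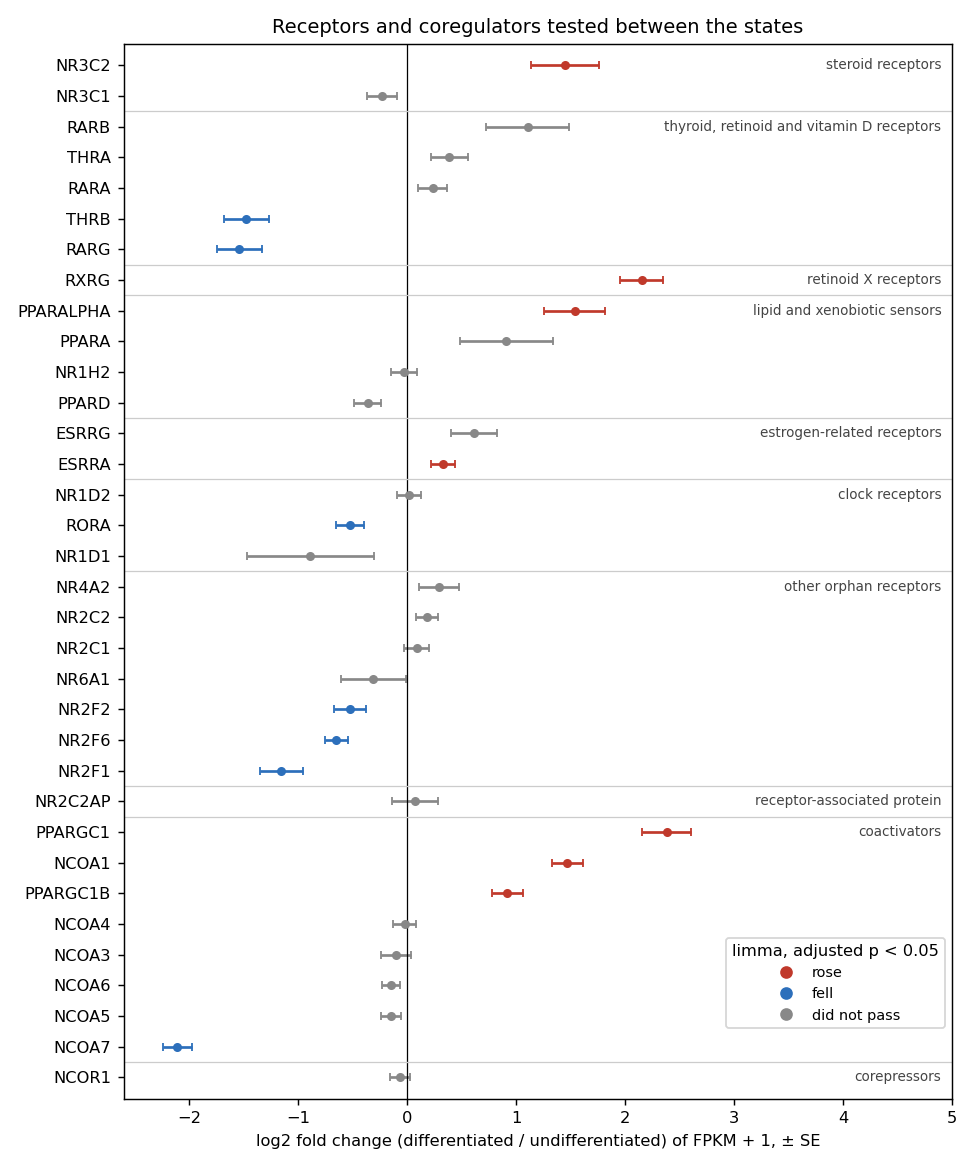
Log2 fold change (differentiated over undifferentiated, of FPKM + 1, ± SE from limma) of the 34 tested members, grouped by role. Points at the right are higher in differentiated cells: 7 members rose (red), 7 fell (blue) and 20 did not pass (grey), from PPARGC1 at 2.38 to NCOA7 at -2.11.

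Levels were modest. State means of tested members ran from 0.0607 FPKM (RXRG, undifferentiated) to 45.6 FPKM (NCOA1, differentiated). NCOA1 was the most abundant member per length in differentiated cells and the 12th in undifferentiated ones. NCOA4, known both as a receptor coactivator and as the cargo receptor that takes ferritin to lysosomes, led in undifferentiated cells. It averaged 36.0 ± 3.80 FPKM in differentiated and 36.5 ± 3.23 FPKM in undifferentiated cells (SD, n = 4 libraries each). The remaining 12 members were too low to test: no library exceeded 1.37 FPKM for any of them, and 11 were listed at 0 in at least 1 library. They include VDR (vitamin D receptor), PPARG (the adipogenic PPAR), NR1H4 (bile acid receptor), RORB, ESRRB, NR0B1, NR0B2, NR2E1, NR2E3, NR5A1 and NR5A2. PPARG was at 0.161, 0.315, 1.37 and 0 FPKM in differentiated cells and at 0, 0.146, 0.499 and 0.101 FPKM in undifferentiated ones.

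**Figure D2:**
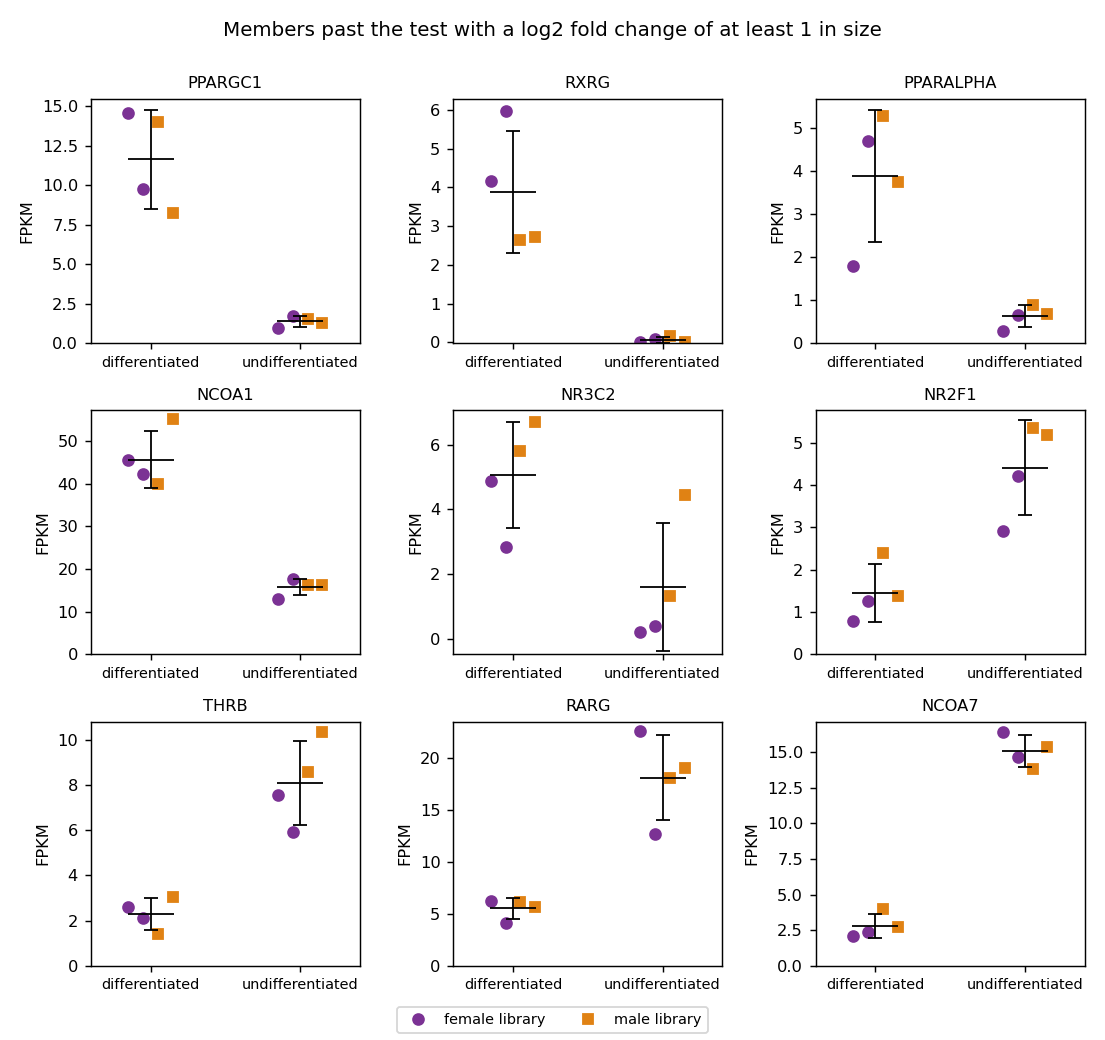
FPKM in each library for the 9 members that passed the test with a log2 fold change of at least 1 in size; differentiated libraries stand left of undifferentiated ones, purple circles are female and orange squares male libraries, and bars give the mean ± SD of 4. Libraries of the states do not overlap except for NR3C2, where undifferentiated male replicate 2 (4.45 FPKM) lies above differentiated female replicate 2 (2.85 FPKM).

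Of the steroid receptors, the mineralocorticoid receptor NR3C2 changed and the glucocorticoid receptor NR3C1 did not pass. NR3C2 (ENSSSCG00000024987, chromosome 8, 85602111 to 85800834, Sscrofa10.2) stood at 4.88 and 2.85 FPKM in differentiated female libraries and at 5.80 and 6.69 FPKM in male ones. Its undifferentiated values were 0.206 and 0.397 FPKM in females and 1.33 and 4.45 FPKM in males. Undifferentiated male replicate 2 was thus within the differentiated range, and the other 3 undifferentiated libraries were below it. The log2 fold change was 1.45 ± 0.311 SE (limma adjusted p = 0.0102), and it was 1.76 without that library (limma adjusted p = 0.00469). An unnamed gene of the same strand, averaging 37.3 FPKM, overlaps the NR3C2 row, so the sharing of reads between them is uncertain. NR3C1, which carries the cortisol signal, averaged 15.0 ± 2.28 FPKM in differentiated and 17.6 ± 1.82 FPKM in undifferentiated cells (n = 4 each, limma adjusted p = 0.22). Outside the symbol rule, the progesterone receptor PGR averaged 0.184 ± 0.120 FPKM in differentiated cells and was listed at 0 in every undifferentiated library, below the level tested.

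The retinoic acid receptors, which respond to all-trans retinoic acid as heterodimers with a retinoid X receptor, differed among themselves: RARG fell, and RARA and RARB did not pass. RARG (ENSSSCG00000000258, chromosome 5, 18846917 to 18857897) had 6.18, 4.07, 6.17 and 5.69 FPKM in differentiated libraries, against 22.6, 12.7, 18.1 and 19.0 FPKM in undifferentiated ones. Every differentiated library lay below every undifferentiated one (log2 -1.54 ± 0.206 SE, limma adjusted p = 0.00169). RARA averaged 27.5 ± 5.37 FPKM in differentiated and 23.2 ± 3.93 FPKM in undifferentiated cells and did not pass (n = 4 each, limma adjusted p = 0.192), though it did under median-ratio scaling (0.0385). RARB, itself a classical retinoic acid target, had 8.51, 6.34, 3.63 and 6.74 FPKM in differentiated libraries, against 1.71, 7.14, 1.40 and 1.20 FPKM in undifferentiated ones. Undifferentiated female replicate 2 stood at the level of the differentiated libraries, and RARB did not pass (log2 1.11 ± 0.379 SE, limma adjusted p = 0.0523). Without that library its log2 fold change was 1.50 and it passed (limma adjusted p = 0.00955).

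Of the thyroid hormone receptors, THRB fell and THRA did not pass. THRB (ENSSSCG00000011211, chromosome 13, 12399955 to 12493717) had 2.58, 2.12, 1.38 and 3.06 FPKM in differentiated libraries, against 7.55, 5.93, 8.60 and 10.4 FPKM in undifferentiated ones. The groups did not overlap and the gene fell (log2 -1.48 ± 0.205 SE, limma adjusted p = 0.00195). THRA, the main form in skeletal muscle, had 15.8, 16.8, 8.59 and 14.1 FPKM in differentiated libraries and 11.8, 9.53, 8.72 and 10.4 FPKM in undifferentiated ones. It did not pass (limma adjusted p = 0.106), but did without differentiated male replicate 1, the lowest of its state (log2 0.55, limma adjusted p = 0.0219), and under median-ratio scaling and quantile normalization. The THRA row shares 348 bp with the NR1D1 row on the opposite strand, and the sources do not say whether counting used strand, so reads in the shared stretch cannot be assigned.

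As a share of the summed FPKM of their own families, RARA and THRA were larger in every differentiated library than in any undifferentiated one, for RARA by a narrow margin. RARA made up 58.8 to 75.2% of the 3 RAR genes in differentiated libraries and 42.1 to 58.1% in undifferentiated ones, and RARG 11.2 to 17.4% and 29.0 to 53.8%. For THRA the shares were 82.2 to 88.8% and 49.9 to 61.7%. The family totals overlapped between the states, at 35.6 to 45.9 FPKM in differentiated and 42.0 to 46.6 FPKM in undifferentiated libraries for RAR, and at 9.97 to 18.9 and 15.5 to 20.7 FPKM for THR. These shares are descriptions with no test. In this assembly the genes sit in a pair of parallel clusters. RARA, THRA and NR1D1 lie on chromosome 12, with 108 kb between the RARA and THRA rows, and NR1D2, THRB and RARB on chromosome 13, with 177 kb between NR1D2 and THRB and 1528 kb between THRB and RARB. In the second cluster THRB fell, NR1D2 was at 0.02 on the log2 scale and RARB at 1.11.

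**Figure D3:**
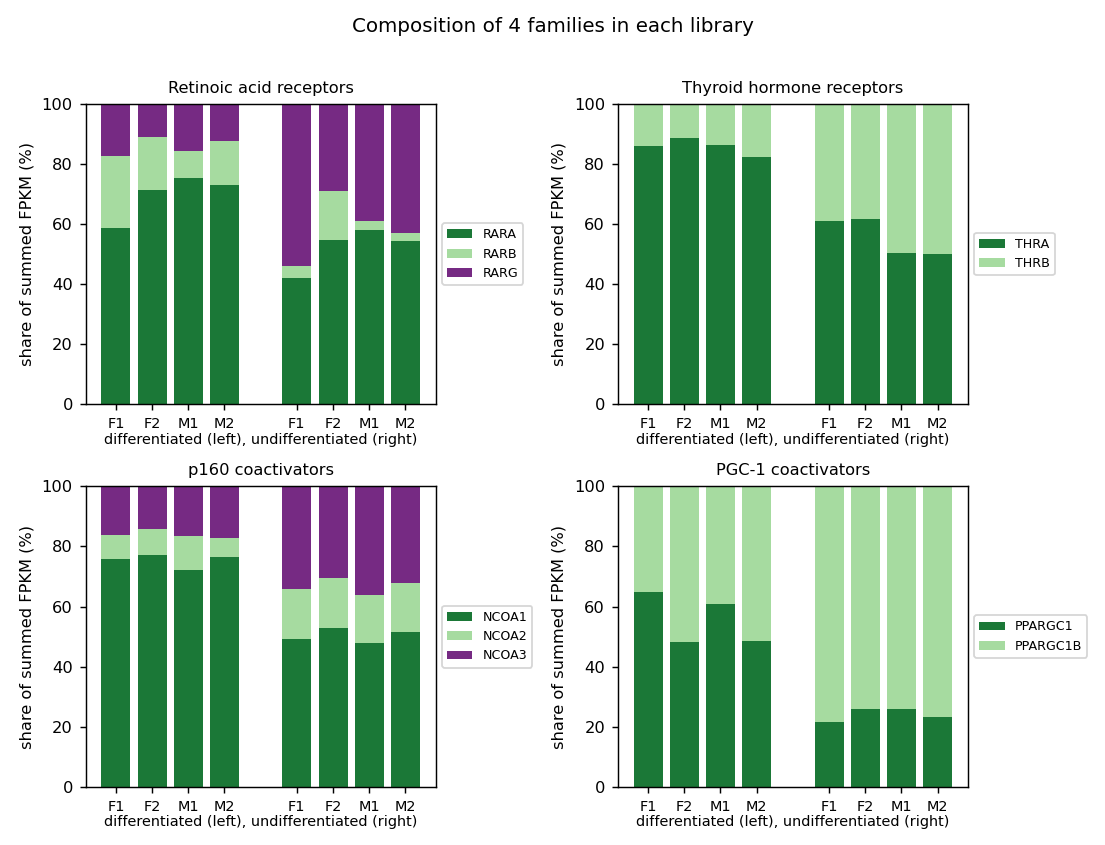
Share of each member in the summed FPKM of its family, in percent, for each library (F, female; M, male; 1 and 2, replicate), with differentiated libraries left of undifferentiated ones. RARA, THRA, NCOA1 and PPARGC1 (dark green) take larger shares in differentiated libraries, reaching 72.1 to 77.1% for NCOA1 and 48.2 to 64.9% for PPARGC1.

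RXRG, the retinoid X receptor known for its expression in skeletal muscle, was measured in differentiated cells and was at or near 0 in undifferentiated ones. RXRG (ENSSSCG00000006328, chromosome 4, 93015120 to 93063524) had 4.17, 5.97, 2.65 and 2.71 FPKM in differentiated libraries. In undifferentiated ones it was listed at 0 in female replicate 1 and male replicate 2, at 0.0741 FPKM in female replicate 2 and at 0.169 FPKM in male replicate 1. The groups were far apart (log2 2.15 ± 0.20 SE, limma adjusted p = 0.000477), and this fold change on the log2(FPKM + 1) scale understates the change of so low a gene. With a pseudocount of 0.1 it was 4.68. RXRB, listed as RXRBETA, averaged 9.07 ± 2.25 FPKM in differentiated and 10.2 ± 1.96 FPKM in undifferentiated cells and did not pass (n = 4 each, limma adjusted p = 0.477). RXRG thus made up 23.1 to 46.9% of the sum of these 2 genes in differentiated libraries and at most 2.03% in undifferentiated ones. RXRA was not analysed here.

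Among the lipid sensors, PPAR alpha, the fatty acid receptor that drives oxidation genes, changed in 1 of its 2 rows. PPARALPHA (ENSSSCG00000000006, chromosome 5, 424929 to 488440), which the Ensembl identifier table names PPARA, had 1.81, 4.71, 5.29 and 3.76 FPKM in differentiated libraries, against 0.287, 0.655, 0.901 and 0.674 FPKM in undifferentiated ones. Every differentiated library was higher (log2 1.54 ± 0.281 SE, limma adjusted p = 0.00554). A second row, listed as PPARA on scaffold GL895405.2, had 1.32, 3.96, 4.45 and 1.04 FPKM, against 1.18, 0.299, 1.01 and 0.796 FPKM, overlapped between the states and did not pass (log2 0.91, limma adjusted p = 0.124), though it did without differentiated male replicate 2 (log2 1.27, limma adjusted p = 0.0473). Reads of 1 gene may be split over these rows, so the level of PPAR alpha is uncertain. PPARD, the PPAR of highest level here, averaged 17.2 ± 1.40 FPKM in differentiated and 22.5 ± 3.24 FPKM in undifferentiated cells (n = 4 each, log2 -0.36, limma adjusted p = 0.0519). It missed the threshold narrowly and passed without undifferentiated female replicate 2 and with genes under 300 bp left out. NR1H2, the widely expressed LXR beta, averaged 27.2 ± 4.50 and 27.6 ± 2.94 FPKM and did not pass (n = 4 each, limma adjusted p = 0.866).

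ESRRA and ESRRG, estrogen-related orphan receptors that work with PGC-1 in mitochondrial gene control, both had higher means in differentiated cells, and ESRRA passed. ESRRA averaged 9.36 ± 0.442 FPKM in differentiated and 7.36 ± 1.63 FPKM in undifferentiated cells and rose by a log2 of 0.33 (n = 4 each, limma adjusted p = 0.0471), although undifferentiated female replicate 2 (9.17 FPKM) lay within the differentiated range of 8.79 to 9.85 FPKM. This call ended under 12 of 15 alternatives, 7 of the 8 omissions of a library among them. TRMT112, a gene of the opposite strand averaging 86.8 FPKM, overlaps the ESRRA row, so its counts are uncertain. ESRRG averaged 4.10 ± 0.672 FPKM in differentiated and 2.37 ± 0.724 FPKM in undifferentiated cells, with no overlap between the libraries, and missed the threshold (n = 4 each, log2 0.61, limma adjusted p = 0.0506). It passed under 5 of the 15 alternatives.

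Among the clock receptors RORA, an activator of the clock gene ARNTL, fell. It averaged 5.34 ± 0.733 FPKM in differentiated and 8.16 ± 1.39 FPKM in undifferentiated cells (n = 4 each, log2 -0.53 ± 0.127 SE, limma adjusted p = 0.0158). The groups did not overlap, but the call ended under median-ratio scaling (0.0767), under quantile normalization, and without differentiated female replicate 2 or undifferentiated male replicate 2. NR1D2, the repressor REV-ERB beta, averaged 13.8 ± 2.39 and 13.6 ± 2.20 FPKM. NR1D1, or REV-ERB alpha, is represented by a row of 1107 bp and was at 1.20, 0.742, 1.36 and 0 FPKM, against 2.15, 7.75, 0 and 2.84 FPKM. Neither passed.

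The COUP-TF receptors, orphan repressors of broad expression, moved in 1 direction. It was also the commoner direction over all tested genes, of which 31.9% fell and 18.0% rose. NR2F1 (ENSSSCG00000014157, chromosome 2, 103838947 to 103848870) had 0.781, 1.26, 2.39 and 1.38 FPKM in differentiated libraries, against 2.91, 4.21, 5.33 and 5.18 FPKM in undifferentiated ones (log2 -1.15 ± 0.196 SE, limma adjusted p = 0.00418). The 2 sets of libraries did not overlap. NR2F6 averaged 14.8 ± 2.63 FPKM in differentiated and 23.6 ± 2.44 FPKM in undifferentiated cells and fell by 0.65 on the log2 scale (n = 4 each, limma adjusted p = 0.00317). NR2F2, known in other species as a brake on myogenic differentiation, averaged 22.0 ± 2.61 FPKM in differentiated and 32.2 ± 5.47 FPKM in undifferentiated cells (n = 4 each, log2 -0.52, limma adjusted p = 0.0271). The NR2F2 call ended under median-ratio scaling (0.157), under quantile normalization, and without either differentiated female library, differentiated male replicate 1 or either undifferentiated female library. All 3 genes kept a negative fold change under every alternative. The other tested orphans were NR2C1, NR2C2, NR4A2 and NR6A1, whose log2 fold changes lay between -0.31 (NR6A1) and 0.30 (NR4A2), and none passed. NR2C2AP averaged 3.02 ± 0.729 and 2.86 ± 1.02 FPKM and did not pass, and its row overlaps RFXANK on the opposite strand.

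Among the 8 coactivators 3 rose, 1 fell and 4 did not pass, where 18.0% of all tested genes rose and 31.9% fell. PPARGC1, listed under the older symbol of PGC-1 alpha (PPARGC1A in the Ensembl identifier table, ENSSSCG00000029275, scaffold GL896199.1, 15045 to 57267), is the coactivator that induces mitochondrial biogenesis in muscle. It had 14.6, 9.78, 14.0 and 8.23 FPKM in differentiated libraries, against 0.982, 1.72, 1.55 and 1.29 FPKM in undifferentiated ones. The groups were well apart (log2 2.38 ± 0.226 SE, limma adjusted p = 0.000511). PPARGC1B, its close relative, averaged 9.02 ± 1.08 FPKM in differentiated and 4.29 ± 0.576 FPKM in undifferentiated cells and rose (n = 4 each, log2 0.92 ± 0.14 SE, limma adjusted p = 0.00276). PPARGC1 made up 48.2 to 64.9% of the sum of both in differentiated libraries and 21.7 to 26.1% in undifferentiated ones, and that sum ranged from 17.0 to 22.9 FPKM and from 4.54 to 6.68 FPKM.

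NCOA1, the p160 coactivator SRC-1 (ENSSSCG00000008581, chromosome 3, 121228062 to 121379022), had 45.5, 42.2, 39.8 and 55.1 FPKM in differentiated libraries, against 13.1, 17.6, 16.3 and 16.3 FPKM in undifferentiated ones. Every differentiated library stood above 39 FPKM and every undifferentiated one under 18 FPKM (log2 1.47 ± 0.143 SE, limma adjusted p = 0.000552). Its p160 relatives did not pass: NCOA3 averaged 9.70 ± 1.90 FPKM in differentiated and 10.4 ± 1.35 FPKM in undifferentiated cells, and NCOA2, a row without a symbol in the table, 5.19 ± 0.738 and 5.13 ± 0.499 FPKM (n = 4 each). NCOA1 therefore made up 72.1 to 77.1% of the p160 sum in differentiated libraries and 47.9 to 52.8% in undifferentiated ones. That sum was 54.8 to 72.1 FPKM in differentiated and 26.7 to 34.1 FPKM in undifferentiated libraries.

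NCOA7, a TLDc-domain protein linked to estrogen receptors and to oxidative stress resistance, moved the other way. NCOA7 (ENSSSCG00000004222, chromosome 1, 40815279 to 40964113) had 2.11, 2.34, 4.00 and 2.69 FPKM in differentiated libraries, against 16.4, 14.7, 13.8 and 15.4 FPKM in undifferentiated ones. It had the smallest adjusted p of the members (log2 -2.11 ± 0.133 SE, limma adjusted p = 0.000125), with differentiated male replicate 1 the highest of the low group. NCOA4, NCOA5 and NCOA6 did not pass, with log2 fold changes of -0.02, -0.15 and -0.15. Neither did the corepressor NCOR1, at 26.1 ± 2.14 FPKM in differentiated and 27.3 ± 1.32 FPKM in undifferentiated cells (n = 4 each, limma adjusted p = 0.596). The NCOR1 row overlaps genes of both strands and the NCOA4 row a gene of the opposite strand, so their reads are uncertain.

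Some further rows are receptors or coregulators by the Ensembl identifier table but carry other symbols or none in the deposited table, so the symbol rule did not take them; they were picked after their values were seen. Of these, LXR, which is NR1H3 or LXR alpha, fell, averaging 10.2 ± 0.575 FPKM in differentiated and 15.2 ± 2.22 FPKM in undifferentiated cells (n = 4 each, log2 -0.52, limma adjusted p = 0.00668). NOR-1, the immediate early orphan receptor NR4A3, fell as well, averaging 1.37 ± 0.314 FPKM in differentiated and 4.74 ± 2.11 FPKM in undifferentiated cells (n = 4 each, log2 -1.21, limma adjusted p = 0.00215). The call of LXR ended under median-ratio scaling (limma adjusted p = 0.0544).

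The surrounding pathways were followed in lists of genes that supply, hold, partner or answer the receptors, each described by counts beside the share of all tested genes that rose (18.0%) or fell (31.9%). Several genes stand in more than 1 list, such as FKBP5, PDK4, PER1, NPC1 and ACADM. Of 12 steroid receptor chaperones, 7 fell and 1 rose, with a median log2 fold change of -0.42. FKBP4, the immunophilin of steroid receptor complexes, averaged 30.5 ± 2.08 FPKM in differentiated and 62.3 ± 3.77 FPKM in undifferentiated cells (n = 4 each, log2 -1.01, limma adjusted p = 0.000318). FKBP5, which lowers glucocorticoid receptor affinity and is also induced by it, fell by 0.92 on the log2 scale, and BAG1, a co-chaperone, rose (log2 0.84). Both HSP90 genes were among those that fell.

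Known glucocorticoid response genes moved both ways: of 15, 6 rose and 6 fell, with a median of -0.01. PDK4, which spares glucose by inhibiting pyruvate dehydrogenase (log2 1.92), and TRIM63, the muscle ubiquitin ligase MuRF1 (log2 1.05), rose most. SGK1, a serum and glucocorticoid regulated kinase (log2 -2.78), and MT2A, a metallothionein (log2 -2.15), fell most. MT2A had 326 FPKM in undifferentiated male replicate 2, against 58.4 to 77.4 FPKM in the other undifferentiated libraries. Differentiated libraries ranged from 9.94 to 45.1 FPKM for MT2A. Its call held under all 15 alternatives, with a log2 fold change between -2.66 and -1.63. Of 11 tested genes of steroid and vitamin D handling, 2 rose and 6 fell (median -0.76). The 2 that rose were HSD11B2, which inactivates cortisol (log2 2.07), and HSD11B1, which regenerates it (log2 1.43). HSD11B2 averaged 3.98 ± 1.88 FPKM in differentiated and 0.124 ± 0.102 FPKM in undifferentiated cells (n = 4 each, limma adjusted p = 0.000399). HSD11B1 averaged 2.81 ± 0.818 FPKM in differentiated and 0.418 ± 0.324 FPKM in undifferentiated cells (n = 4 each). The largest falls were those of SRD5A1, a steroid 5-alpha reductase (log2 -1.54), and CYP2R1, a vitamin D 25-hydroxylase (log2 -1.13).

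In retinoid and thyroid hormone handling 8 of 18 genes were tested, of which 1 rose and 1 fell (median -0.07); without differentiated male replicate 1, 3 rose. CRABP2, which carries retinoic acid to its receptors, averaged 8.75 ± 2.76 FPKM in differentiated and 0.848 ± 0.350 FPKM in undifferentiated cells (n = 4 each, log2 2.38, limma adjusted p = 0.000477). CRYM, a cytosolic thyroid hormone binding protein, fell (log2 -0.82, limma adjusted p = 0.0314), a call that ended in 9 of 15 alternatives, 7 of the 8 omissions of a library among them.

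Of 12 tested PPAR response genes, 7 rose and 1 fell (median 1.11). CPT1B, the muscle carnitine transferase of fatty acid import into mitochondria, rose most (log2 4.84), followed by UCP2, an uncoupling protein (log2 2.30). CPT1B averaged 29.7 ± 9.60 FPKM in differentiated and 0.0327 ± 0.0654 FPKM in undifferentiated cells (n = 4 each). The size of its change thus depends on the pseudocount, and it reached 7.86 under the alternatives. HADHA, a subunit of the trifunctional protein of fatty acid oxidation, fell (log2 -0.47), and its call ended under median-ratio scaling (limma adjusted p = 0.0520). Of 8 tested LXR response genes, 2 rose and 5 fell (median -0.73). ABCA1, the cholesterol exporter, fell most, averaging 4.58 ± 0.984 FPKM in differentiated and 21.5 ± 4.32 FPKM in undifferentiated cells (n = 4 each, limma adjusted p = 0.000548), followed by FASN, fatty acid synthase (log2 -1.67). APOE, a lipoprotein component (log2 1.72), and SMPDL3A, a phosphodiesterase averaging 0.360 FPKM in undifferentiated cells (log2 1.03), rose. Both calls ended without differentiated female replicate 2 or differentiated male replicate 2, which left 0 rises. That of APOE also ended without differentiated male replicate 1 or undifferentiated male replicate 2, and that of SMPDL3A without undifferentiated female replicate 2 or undifferentiated male replicate 1 and under 6 of 15 alternatives in all, quantile normalization among them.

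Of 16 tested response genes of ERR and PGC-1, 4 rose and 1 fell (median 0.05), and 8 rose under median-ratio scaling. Without differentiated male replicate 1, 2 fell. NDUFA5, a subunit of respiratory complex I (log2 0.83), and MFN2, a mitochondrial fusion protein (log2 0.60), rose most, and VEGFA, the vascular growth factor, fell (log2 -1.51). Among 13 tested clock partners 3 rose and 4 fell (median -0.17). PER2 (log2 1.69) and BHLHE41 (log2 1.25), both repressors in the clock, rose most. PER2 averaged 3.91 ± 0.746 FPKM in differentiated and 0.528 ± 0.224 FPKM in undifferentiated cells, and BHLHE41 2.37 ± 0.234 and 0.440 ± 0.330 FPKM (n = 4 each). ARNTL2 (log2 -1.81) and ARNTL, the BMAL1 that drives the clock with CLOCK and is a target of RORA and NR1D1 (log2 -1.23), fell most. ARNTL2 had 13.4 FPKM in differentiated male replicate 1, against 2.35 to 2.60 FPKM in the other differentiated libraries. Undifferentiated libraries ranged from 14.1 to 18.7 FPKM, so that library lay close to them. The ARNTL2 call ended without differentiated female replicate 2, undifferentiated female replicate 1 or undifferentiated male replicate 2.

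Of 25 tested further coregulators, 6 rose and 5 fell (median -0.03). The acetyltransferase paralogs KAT2B (log2 1.05) and KAT2A (log2 -1.05) went in opposite directions. KAT2B averaged 28.1 ± 1.52 FPKM in differentiated and 13.1 ± 2.00 FPKM in undifferentiated cells, and KAT2A 7.19 ± 1.05 and 16.0 ± 1.89 FPKM (n = 4 each, limma adjusted p = 0.00124 and 0.00117). HDAC4, a class II deacetylase that represses MEF2, rose (log2 0.61). PPRC1, the third PGC-1 family member, which responds to serum, fell (log2 -0.80, limma adjusted p = 0.000479), against the rises of PPARGC1 and PPARGC1B.

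**Figure D4:**
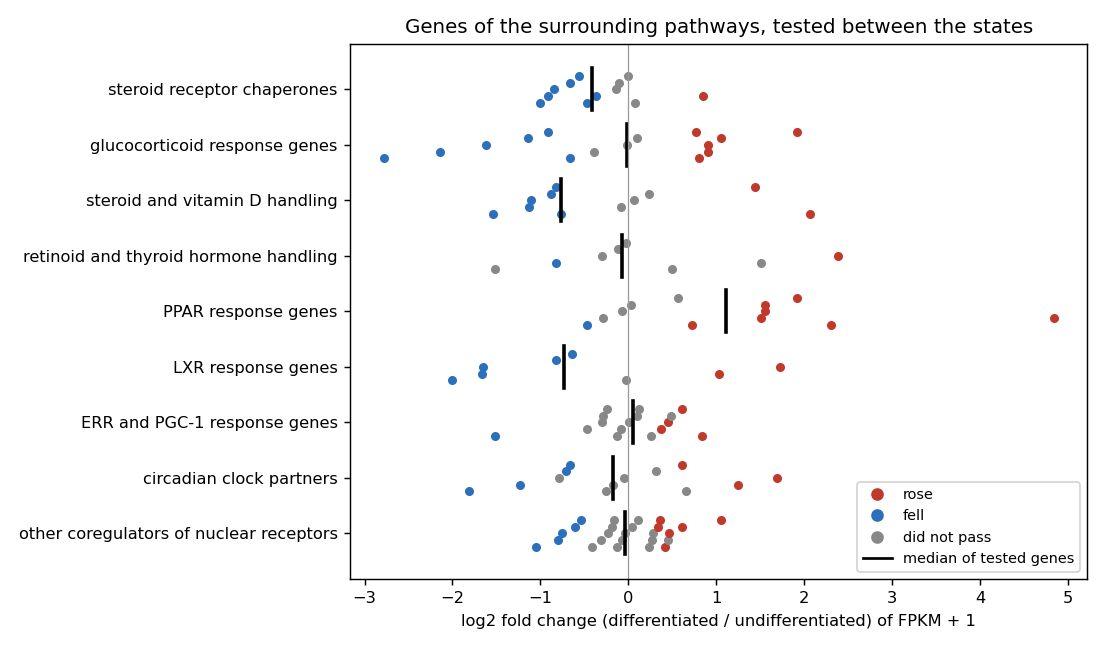
Log2 fold change (differentiated over undifferentiated, of FPKM + 1) of each tested gene in 9 lists around the receptors, 1 point per gene, with the median as a black bar. PPAR response genes lie mostly to the right (median 1.11), and LXR response genes, steroid handling genes and chaperones mostly to the left (medians -0.73, -0.76 and -0.42).

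The labels give each library a sex. Between the states of the female libraries 11 of 34 members differed (32.4%, against 35.8% of all tested genes), and of the male libraries 11 (32.4%, against 33.0%). Both comparisons used the spread estimated from all 8 libraries, so neither is a test of 1 sex by itself. Averaged over the states, 0 of 34 members differed between females and males, where 0.0849% of all tested genes did (limma, adjusted p under 0.05). At an unadjusted p under 0.05 there were 3 members (NR3C2, RARA and NR2F1, each lower in females), or 8.82%, against 9.73% of all tested genes. For NR3C2 the log2 difference, female minus male, was -1.03 (limma adjusted p = 0.457). The effect of state differed between the sexes for 0 members, where 0.0231% of all tested genes passed, and at an unadjusted p under 0.05 for 2 (5.88%, against 6.03%). These were NR1D2 and NR2F6. NR1D2 had 13.5 and 10.5 FPKM in differentiated female libraries, against 14.8 and 16.0 FPKM in undifferentiated ones, and 16.0 and 15.1 FPKM in differentiated male libraries, against 12.3 and 11.2 FPKM in undifferentiated ones. The directions were opposite, but the difference did not pass after adjustment (log2 -0.72, limma adjusted p = 0.804).

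Of the receptors under other symbols, ER, the row that the identifier table names ESR1 (estrogen receptor alpha; ENSSSCG00000025777, chromosome 1, 16542368 to 16907255), was higher in each female library than in any male one. It had 75.5 and 22.8 FPKM in differentiated female libraries and 35.0 and 35.3 FPKM in undifferentiated female ones. In males it had 20.5 and 2.58 FPKM in differentiated and 1.78 and 0.366 FPKM in undifferentiated libraries. Such an order of the sexes was found in 0.825% of all tested genes, and the difference did not pass (log2 3.25, female minus male, limma adjusted p = 0.326). Neither did that between the states, at 30.4 ± 31.4 FPKM in differentiated and 18.1 ± 19.7 FPKM in undifferentiated cells (n = 4 each, log2 1.21, limma adjusted p = 0.179). Without differentiated male replicate 2, the lowest of its state, ER passed between the states (log2 1.85, limma adjusted p = 0.0397).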

How the data were processed

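FPKM values for 25285 genes with Ensembl pig identifiers were used as deposited by the authors. Per the submitters' processing notes, cutadapt 1.6, TopHat2 2.0.12.1, Cufflinks 2.2.1 and the build Sscrofa10.2 were used; settings, annotation release and scaling total are not given in the sources used here. Per the labels' protocols, the kit (SMARTer Stranded, Pico Input) takes total RNA, but polyA RNA is the labelled molecule. Depth in reads is unknown. From the commonest ratio between low values of 5557 genes, undifferentiated libraries were an estimated 1.68 to 2.28 times, and the other differentiated ones 1.26 to 1.63 times, as deep as differentiated female replicate 1.

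R 4.3.3 and limma 3.58.1 were used on log2(FPKM + 1) for genes averaging at least 1 FPKM, with 1 mean for each of the 4 groups of state and sex, a mean-variance trend, and without a block (residual degrees of freedom 4, prior 2.09). Two-sided p-values were adjusted by Benjamini and Hochberg over all 12963 tested genes, and "rose" and "fell" mean an adjusted p under 0.05. The script was tested on simulated data.

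The members and lists were chosen with earlier results of these data known. Values in every library are given for members called with a log2 fold change of at least 1 in size; for each list the 2 largest called rises and falls are named, and other genes were picked with their values in view. Alternatives were a pseudocount of 0.1, no filter, median-ratio scaling, quantile normalization, leaving out genes under 300 bp, a replicate block, no trend, and leaving out each library. Names come from the table or from an Ensembl identifier table that held 11791 of its identifiers, 39 of the 46 members among them. A few genes are not reported here.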

Additional observations from a re-analysis of the deposited data

Results flagged for a closer look

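In 80 sets of 4 libraries of 1 state, 5 had a library far from the other 3 on the log2 scale; chance gives about 1 in 20 such sets. NR2C2 stood at 18.5 FPKM in differentiated female replicate 1, against 14.9 to 15.2 FPKM in the other 3 differentiated libraries. It also stood at 12.5 FPKM in undifferentiated male replicate 2, against 14.1 to 14.4 FPKM in the other undifferentiated ones. RARB stood at 7.14 FPKM in undifferentiated female replicate 2, against 1.20 to 1.71 FPKM. LXR was at 11.1 FPKM and NCOA2 at 6.29 FPKM in differentiated male replicate 1, against 9.81 to 10.0 FPKM and 4.79 to 4.88 FPKM in the other differentiated libraries.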

How the results depend on the processing

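Of the 14 members called between the states, 11 kept their call and direction under all 15 alternatives, and ESRRA, RORA and NR2F2 did not. Median-ratio scaling gave 12 members that rose and quantile normalization 11, against 7; RARA, THRA, RARB, NR2C2 and ESRRG were those added by the first. Both scalings left 5 falls. Of all tested genes, 25.0% rose and 22.4% fell under median-ratio scaling, and 20.8% and 25.5% under quantile normalization, against 18.0% and 31.9%. Leaving out 1 library gave 6 to 8 rises and 5 to 7 falls, while 14.6 to 17.0% of all tested genes rose and 25.6 to 29.3% fell. With genes under 300 bp left out 8 rose and 8 fell, while 19.1% of all tested genes rose and 33.5% fell. Of 20 members that did not pass, 8 changed sign under at least 1 alternative. A replicate block by sex and number gave 6 rises and 7 falls, without ESRRA, while 17.0% of all tested genes rose and 30.5% fell. The block also ended the calls of SMPDL3A and CRYM. Differences between replicates correlated across the states at 0.07 in females and -0.03 in males. With 1 such difference per sex and state, these values cannot tell whether libraries of the same number share an animal. Calls that involve sex stayed at 0 members under every alternative that gave a value. Over all tested genes, 3 differed between the sexes in their state effect, against 0 with the block and at most 25 under any alternative. Small list counts moved too: retinoid and thyroid hormone handling had up to 3 rises against 1, ERR and PGC-1 response genes 8 against 4 under median-ratio scaling, and chaperones 2 against 1. The cause of these shifts was not tested. Low values such as those of RXRG rest on few fragments, and their number is unknown.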
